A study of Homo sapiens with 16 samples.

Results

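The 36 genes described here encode Polycomb proteins, the enzymes that remove trimethylation from lysine 27 of histone H3, the enzymes that write or remove methylation on lysine 36, and the de novo DNA methyltransferases. They were taken as a list of names and not by a cut on a measured value, but earlier results of these data were known when the list was made. All 36 matched one of the 19974 protein-coding gene records of chromosomes 1 to 22 and X in RefSeq GRCh38.p14. NSD2 is not on the list. Polycomb repressive complex 2 (PRC2) places H3K27me3, the repressive mark read by the chromobox subunits of Polycomb repressive complex 1 (PRC1), which adds ubiquitin to histone H2A. H3K36 methylation, written by NSD2 and its relatives, hinders PRC2 on the same histone tail and recruits DNMT3A and DNMT3B. H3K4me3 marks the promoters of active or poised genes, and Polycomb genes of the CBX family are known in other cell types to be Polycomb targets themselves.

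Both marks were profiled by ChIPmentation, in which immunoprecipitated chromatin is tagged with sequencing adapters by a transposase while still bound to the antibody. The study asked how mutant NSD2 changes chromatin marks in TKO cells, labelled as plasma cells derived from KMS-11, a human multiple myeloma line. The cells carried D1240A NSD2, F1295A NSD2, no form that the sample name gives (plain TKO) or wild type NSD2 (WT), and the labels give all of them, WT included, the same KMS-11 WHSC1(+/-) genotype, WHSC1 being an older name of NSD2. The 16 samples gave each of the 4 forms an H3K27me3 pair, a single H3K4me3 sample and a single IgG sample, all from the same TKO line. All 16 were treated with 0.8% formaldehyde and 0.125 mol/l glycine.

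One peak list per form and mark was analysed, because both H3K27me3 samples of a form share a list. The H3K27me3 lists held 2188 peaks in D1240A, 2083 in F1295A, 5881 in TKO and 3790 in WT, and the H3K4me3 lists held 7712, 8239, 7396 and 8140 peaks in D1240A, F1295A, TKO and WT. With no replicate value per form, no difference between forms could be set against a replicate error and no test was run, so every difference that follows is a description of these 8 lists. Read depth is unknown, and a mark that is weaker cannot be told apart from a list that is shallower or more strictly called. Of 9 plasma cell markers, 6 carried H3K4me3 at a gene end in D1240A, 7 in F1295A, 5 in TKO and 7 in WT, with CD38 and SLAMF7 without it in every form. The plasma cell marker SDC1 carried H3K27me3 in every form and SLAMF7 carried it in TKO. Of 5 B cell markers, CIITA carried H3K4me3 in all 4 forms and BCL6 in F1295A, and PAX5 and BCL6 carried H3K27me3 in WT. None of 3 T cell, 3 myeloid and 3 stromal markers carried H3K4me3 in any form.

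Calls used a 1 kb window around both ends of the gene record, and any peak that reached a window marked the gene. H3K4me3 was called at 28 of the 36 genes in D1240A, 29 in F1295A, 28 in TKO and 28 in WT, against 41.6%, 44.5%, 39.9% and 43.6% of all protein-coding genes in the same order of forms. H3K27me3 was called at 2 genes in D1240A, 2 in F1295A, 1 in TKO and 3 in WT, against 5.36%, 5.79%, 10% and 9.57% of all genes. These 3 genes were CBX2, CBX8 and PCGF1, all of PRC1. CBX8 was called in all 4 forms, as were 4.62% of all genes, and the H3K27me3 call of CBX2 and PCGF1 differed between forms, as it did for 7.19% of all genes. H3K4me3 was called at a gene end in all 4 forms at 27 members, against 39% of all genes. Beyond the gene ends, 5 members carried H3K4me3 at a RefSeq transcription start inside their record, and with such starts counted 33, 34, 34 and 33 members were marked in D1240A, F1295A, TKO and WT, against 43.4%, 46.3%, 41.6% and 45.5% of all genes. In that count 33 members were marked in all 4 forms, which holds for 40.7% of all genes, and only RBBP7, PHC1 and PCGF3 were not. At the RefSeq starts alone, known for 33 members, H3K4me3 was called at 29 members in D1240A, 30 in F1295A, 30 in TKO and 29 in WT, against 44.1%, 46.9%, 42.3% and 46.2% of genes. H3K27me3 was called there at 0 members in each form, against 3.88%, 4.12%, 7.27% and 7.04% of the 15812 genes with such a start. The 33 members leave out CBX2, CBX8 and NSD3, for which no RefSeq start was available. CBX2 and CBX8, both called for H3K27me3 at a gene end, could therefore not count, and the 0 is not read as a lack of the mark.

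**Figure D1:**
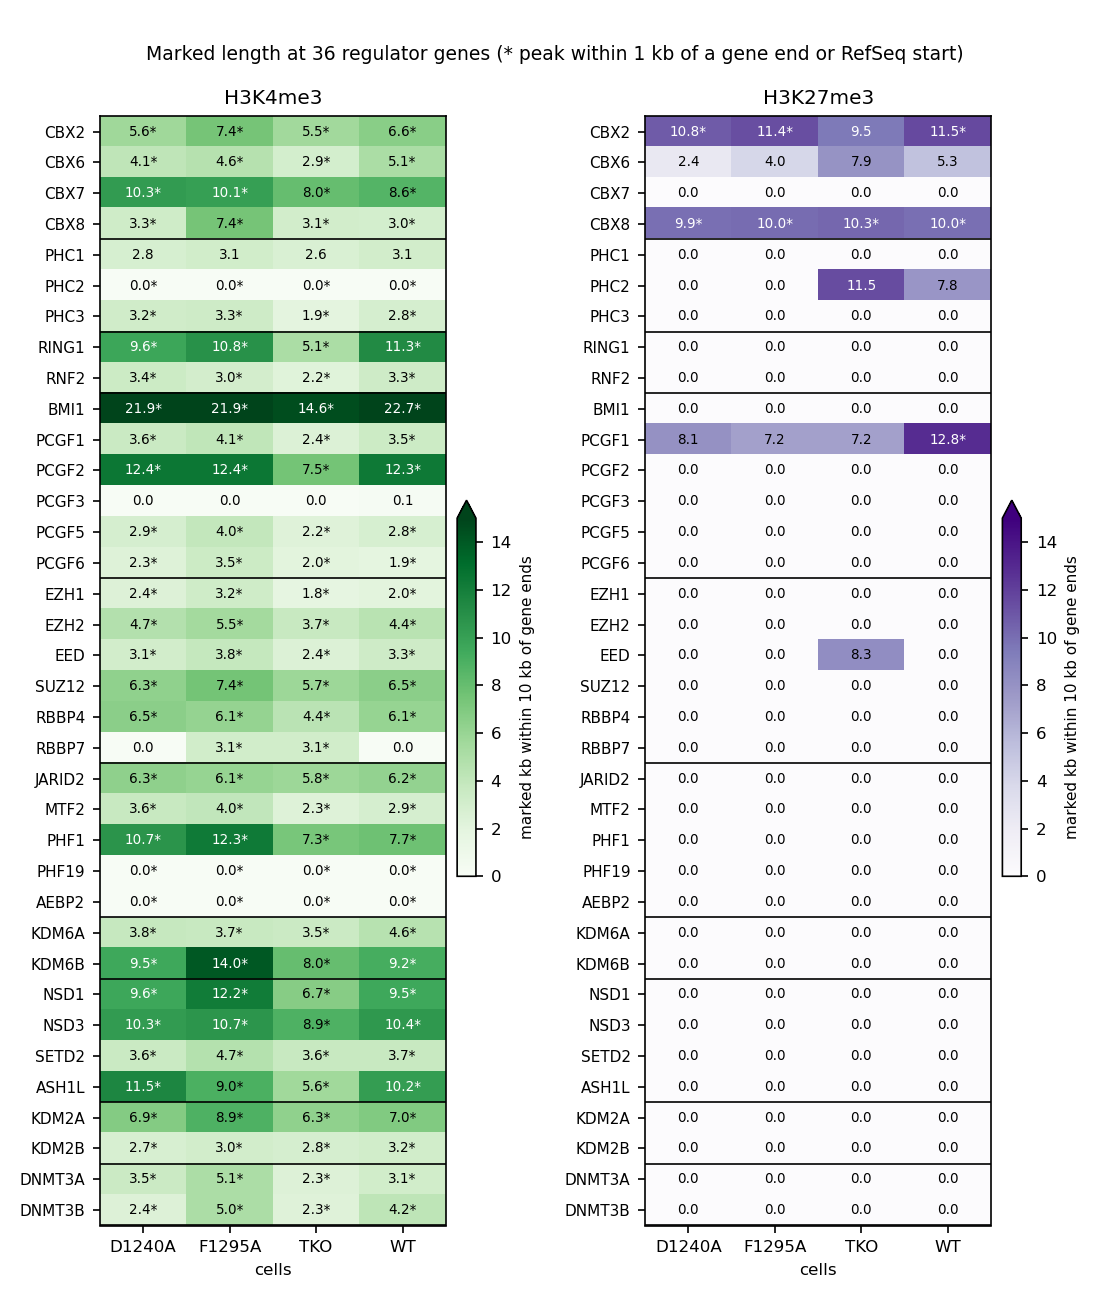
Marked kilobases within 10 kb of the ends of each of the 36 gene records, for H3K4me3 at the left and H3K27me3 at the right, with D1240A, F1295A, TKO and WT from left to right and genes grouped by role. An asterisk marks a peak within 1 kb of a gene end or RefSeq start. H3K27me3 is seen near 6 genes, in all 4 forms at CBX2, CBX6, CBX8 and PCGF1, while H3K4me3 is seen near most genes.

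The length marked within 10 kb of the gene ends gave a finer value than the call. For H3K4me3 its median over the 36 members was 3.60 kb in D1240A, 4.85 kb in F1295A, 3.11 kb in TKO and 3.92 kb in WT, against 0, 1.47, 0 and 0.209 kb over all genes in these forms. Among genes called at an end, the members' medians were 5.17, 6.09, 3.66 and 5.60 kb, and those of all called genes 3.88, 4.29, 3.10 and 3.81 kb, in D1240A, F1295A, TKO and WT. H3K27me3 lay within 10 kb of 4 members in D1240A, 4 in F1295A, 6 in TKO and 5 in WT, against 8.94%, 9.47%, 17.4% and 15.5% of all genes. The 6 members reached in at least 1 form, against 19.5% of all genes, were CBX2, CBX6, CBX8, PHC2, PCGF1 and EED. Windows of short records merge, and the sum takes in every peak in them, also those of neighbouring genes, so levels are compared here between forms of a gene rather than between genes.

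CBX2 and CBX8 encode chromobox proteins that bind H3K27me3 and lie next to each other on chromosome 17, CBX2 at chr17:79777311-79787983 and CBX8 at chr17:79792132-79797077. H3K27me3 within 10 kb of the CBX2 ends summed to 10.8 kb in D1240A, 11.4 kb in F1295A, 9.47 kb in TKO and 11.5 kb in WT. The peak at its lower end was 9.97 kb long in D1240A, 11.6 kb in F1295A and 11.9 kb in WT. In TKO the corresponding peak, 9.46 kb long, ended 1.738 kb before the record, so CBX2 was not called there at the 1 kb window and was called at 2.5 kb. CBX8 had 9.92 kb in D1240A, 10.0 kb in F1295A, 10.3 kb in TKO and 9.95 kb in WT. Its peak ran past the 10 kb window in every form, so these sums reflect only where the near edge of the peak lay. Its peak, 17.0, 17.8, 17.2 and 17.8 kb long in D1240A, F1295A, TKO and WT, lay at the 85.9th, 83.7th, 91.1st and 94.0th percentile of total signal in its own list. The peak began 0.084 kb outside the CBX8 record in D1240A and 0.047 kb outside it in WT. It covered 0.505% of the record in F1295A and 6.19% in TKO, so inside the record CBX8 was marked in these forms only.

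Both genes also carried H3K4me3 in every form. The peak at CBX2 was 3.401 kb long in D1240A, 4.30 kb in F1295A, 3.295 kb in TKO and 4.48 kb in WT. Within 10 kb of the CBX2 ends, H3K4me3 summed to 5.63, 7.42, 5.53 and 6.61 kb in these forms, because the window also takes in part of the CBX8 peak. CBX8 had 3.27 kb in D1240A, 7.38 kb in F1295A, 3.10 kb in TKO and 2.96 kb in WT, so F1295A stood above the other 3 forms, which lay close together. The F1295A peak at CBX8 was 7.01 kb long but lay at the 4.58th percentile of mean signal per base in its list, that is, it was wide and low. A further F1295A peak of 8.69 kb, seen in no other form, began 29.4 kb above the lower end of CBX2, inside the H3K27me3 domain, at the 0.0789th percentile of mean signal. Bases under both marks at the lower end of CBX2 summed to 0.616 kb in D1240A, 1.40 kb in F1295A, 0 kb in TKO and 0.919 kb in WT. Within 10 kb of the CBX8 ends they summed to 1.86 kb in D1240A, 5.19 kb in F1295A, 2.08 kb in TKO and 1.69 kb in WT, and part of these bases also lies within 10 kb of CBX2. No other member had bases under both marks within 10 kb of its ends in any form. By calls at gene ends, both marks were called at 2 members in D1240A, 2 in F1295A, 1 in TKO and 3 in WT, against 0.726%, 0.971%, 1.12% and 1.59% of all genes. Such a call needs no shared bases, and PCGF1, called for both in WT, had none.

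**Figure D2:**
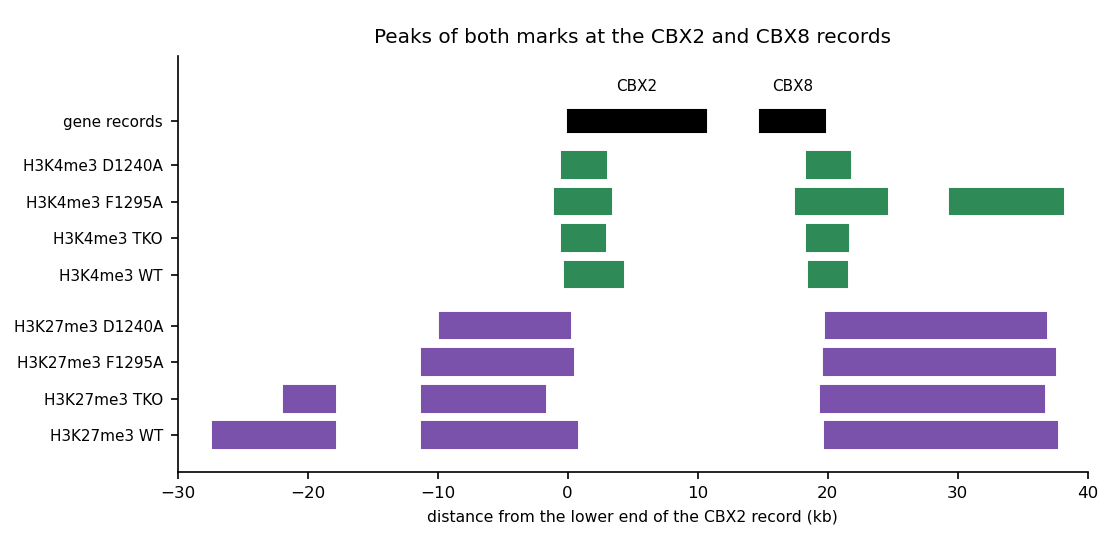
Peaks of H3K4me3 and H3K27me3 over CBX2 and CBX8, plotted as distance in kb from the lower end of the CBX2 record, with a row for each of D1240A, F1295A, TKO and WT per mark. H3K27me3 lies on either side of CBX2 and CBX8 in all 4 forms, and the TKO peak on the left stops 1.738 kb before CBX2.

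The other chromobox members differed from this pair. CBX6, at chr22:38861422-38872216, had 2.398 kb of H3K27me3 within 10 kb in D1240A, 3.96 kb in F1295A, 7.93 kb in TKO and 5.31 kb in WT. In D1240A, F1295A and WT it was the edge of a domain over NPTXR, also present in TKO, that was 36.3 kb long in D1240A, 42.2 kb in F1295A, 42.1 kb in TKO and 47.0 kb in WT and ended 7.60, 6.04, 7.57 and 4.69 kb from CBX6. TKO alone had a second peak, 5.50 kb long and 3.30 kb from the other end, which made up most of its sum. H3K4me3 covered 4.12 kb at CBX6 in D1240A, 4.59 kb in F1295A, 2.93 kb in TKO and 5.14 kb in WT. CBX7, which encodes another reader of H3K27me3, had no H3K27me3 within 10 kb and 10.3, 10.1, 8.01 and 8.63 kb of H3K4me3 in D1240A, F1295A, TKO and WT.

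PCGF1 encodes the RING partner of the variant PRC1 that holds KDM2B and BCOR. Its record, chr2:74505043-74507695 on the minus strand, was called for H3K27me3 in WT and in no other form. The call came from a WT peak 4.75 kb long, at the 13.6th percentile of its list, that ended 0.347 kb from the 3′ end of PCGF1 and also covered an end of LBX2, a homeobox gene. Upstream of PCGF1 a second peak over the homeobox gene TLX2 was present in all 4 forms, with its near edge 1.945 kb away in D1240A, 2.806 kb in F1295A, 2.832 kb in TKO and 1.911 kb in WT. Summed within 10 kb, H3K27me3 covered 8.06 kb in D1240A, 7.20 kb in F1295A, 7.17 kb in TKO and 12.8 kb in WT. At the PCGF1 start itself H3K27me3 was absent from every list, and H3K4me3 covered 3.56 kb in D1240A, 4.10 kb in F1295A, 2.42 kb in TKO and 3.46 kb in WT. The promoter is printed because it lies between the 2 H3K27me3 peaks of WT, free of both. It spans chr2:74507646-74507945 of GRCh38.p14 in RefSeq, read 5′ to 3′ on the minus strand from 250 bases before to 50 bases after the start, and capitals here and in the sequences that follow mark CG dinucleotides.
PCGF1 promoter: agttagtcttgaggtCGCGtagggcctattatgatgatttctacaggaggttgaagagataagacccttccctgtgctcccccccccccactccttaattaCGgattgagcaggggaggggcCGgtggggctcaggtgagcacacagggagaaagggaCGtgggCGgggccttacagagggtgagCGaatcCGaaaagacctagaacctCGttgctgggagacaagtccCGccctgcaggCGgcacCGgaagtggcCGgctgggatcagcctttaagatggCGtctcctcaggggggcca

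The number of CG dinucleotides in this window was 14, against a median of 29 over the 33 members with such a window and 22 over all 15812 genes. The median GC content was 69.3% over the members and 62.7% over all genes. At the outermost start in the RefSeq table, H3K4me3 was present in all 4 forms at 26 of the 33 members, 78.8%, against 40.3% of all genes, and in no form at 5 members, 15.2%, against 53.5%. CG counts ranged from 2 at PCGF2 to 52 at PCGF5, and both of these starts carried H3K4me3 in all 4 forms.

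**Figure D3:**
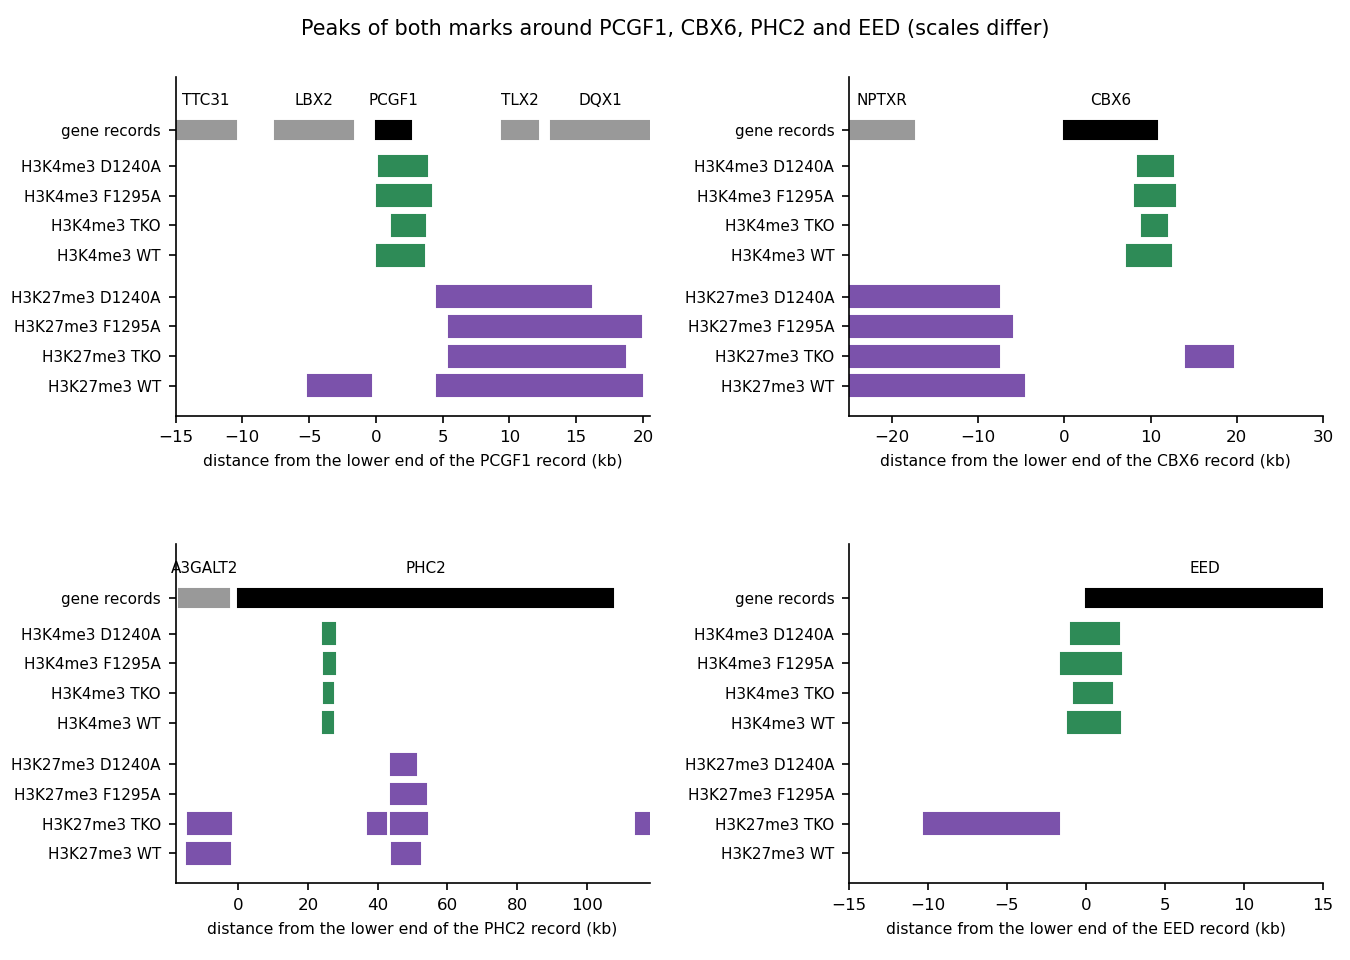
Peaks of both marks around PCGF1, CBX6, PHC2 and EED, as distance in kb from the lower end of each record, with rows for D1240A, F1295A, TKO and WT per mark and neighbouring genes in grey. No H3K27me3 peak overlaps the H3K4me3 peaks drawn, the WT peak at the left of PCGF1 is 4.75 kb long, and the peak before EED is seen in TKO only.

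Among the polyhomeotic genes, which encode the PRC1 subunits that polymerise, PHC2 was the one with H3K27me3. It had 0 kb within 10 kb of its ends in D1240A and F1295A, 11.5 kb in TKO and 7.76 kb in WT. TKO and WT shared a peak of 12.5 kb each on the A3GALT2 side of the gene, which neither mutant list held. TKO alone had a further peak, 4.07 kb long and 6.57 kb beyond the other end, part of which adds to its sum. Inside the PHC2 record, however, H3K27me3 covered 6.70% in D1240A, 9.30% in F1295A, 14.4% in TKO and 7.51% in WT. H3K4me3 was absent from the ends of PHC2 and lay at an internal RefSeq start, in peaks of 3.33, 3.02, 2.42 and 2.81 kb in D1240A, F1295A, TKO and WT. PHC3 had low H3K4me3 lengths for a called member, 3.18 kb in D1240A, 3.33 kb in F1295A, 1.90 kb in TKO and 2.82 kb in WT.

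PHC1 and PCGF3 had no H3K4me3 peak at an end or a RefSeq start in any form, as had 52.8% of all genes. The 2.80, 3.12, 2.63 and 3.06 kb of H3K4me3 within 10 kb of PHC1 in D1240A, F1295A, TKO and WT began 6.92, 6.88, 7.002 and 6.94 kb outside its record. PCGF3 had 0 kb in D1240A, F1295A and TKO and 0.13 kb in WT. Neither gene had H3K27me3 within 10 kb. Their starts are printed because these are the members called for neither mark in any form. They were chosen for printing after their values were seen. The inner start of PHC1, at chr12:8914259-8914558 on the plus strand, holds 28 CG dinucleotides, and the start of PCGF3, at chr4:705582-705881 on the plus strand, holds 38.
PHC1 inner start: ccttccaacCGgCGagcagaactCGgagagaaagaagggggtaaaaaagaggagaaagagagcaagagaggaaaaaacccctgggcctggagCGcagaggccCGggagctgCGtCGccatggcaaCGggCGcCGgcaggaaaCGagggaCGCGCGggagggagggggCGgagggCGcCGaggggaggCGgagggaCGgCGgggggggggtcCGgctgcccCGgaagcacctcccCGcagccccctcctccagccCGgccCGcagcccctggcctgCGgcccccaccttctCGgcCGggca
PCGF3 start: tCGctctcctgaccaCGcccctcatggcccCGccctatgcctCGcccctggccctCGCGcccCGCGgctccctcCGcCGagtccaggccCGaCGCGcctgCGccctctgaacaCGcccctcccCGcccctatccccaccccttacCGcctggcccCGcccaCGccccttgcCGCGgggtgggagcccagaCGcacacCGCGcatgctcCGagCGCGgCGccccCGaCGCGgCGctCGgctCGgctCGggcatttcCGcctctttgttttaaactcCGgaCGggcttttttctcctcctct

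Of all promoters with at least 38 CG dinucleotides, 60.1% carried H3K4me3 in all 4 forms and 30.8% in none, so an unmarked start of this kind is not rare in these lists.

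RING1 and RNF2 encode the ubiquitin ligases of PRC1. RING1 had 9.63 kb of H3K4me3 in D1240A, 10.8 kb in F1295A, 5.12 kb in TKO and 11.3 kb in WT, the lowest TKO over WT ratio of any member, 0.453. Its strongest peak was 5.83 kb long in D1240A, 10.8 kb in F1295A, 1.97 kb in TKO and 11.3 kb in WT, at the 71.2nd, 96.5th, 37.1st and 97.0th percentile, and it reached neighbours that include HSD17B8. In F1295A and WT a single peak spanned the stretch up to SLC39A7 and RXRB. In D1240A and TKO that stretch was split, with a separate peak of 3.805 kb at the 82.2nd percentile in D1240A and of 3.15 kb at the 78.3rd in TKO. RNF2 ranged less, from 2.17 kb in TKO to 3.42 kb in D1240A. Neither ligase gene had H3K27me3 within 10 kb.

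The PCGF genes encode the RING partners that set the type of PRC1. BMI1 had 21.9 kb of H3K4me3 in D1240A, 21.9 kb in F1295A, 14.6 kb in TKO and 22.7 kb in WT, a sum that includes a second peak toward SPAG6. Its strongest peak, shared with the neighbouring COMMD3, lay between the 98.7th and the 99.2nd percentile in the 4 lists. PCGF2, which encodes the closest relative of BMI1, had 12.4 kb in D1240A, 12.4 kb in F1295A, 7.46 kb in TKO and 12.3 kb in WT. Its strongest peak was 9.32 kb long in D1240A, 8.64 kb in F1295A, 2.60 kb in TKO and 7.59 kb in WT, at the 88.6th, 89.3rd, 28.0th and 88.4th percentile. The peak reached the end of PSMB3 in D1240A, F1295A and WT. In TKO the stretch was split, and a separate peak of 2.14 kb at the 68.8th percentile lay at PSMB3. PCGF6 had 2.30 kb in D1240A, 3.45 kb in F1295A, 2.02 kb in TKO and 1.86 kb in WT, and was one of 2 members called in both forms whose TKO length exceeded that in WT, with a ratio of 1.08. PCGF5 was marked at internal starts only.

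EZH2 and EZH1 encode the alternative catalytic subunits of PRC2. EZH2 had 4.72 kb of H3K4me3 in D1240A, 5.47 kb in F1295A, 3.68 kb in TKO and 4.40 kb in WT, in a peak between the 94.5th and the 96.6th percentile. EZH1 had 2.38 kb in D1240A, 3.23 kb in F1295A, 1.81 kb in TKO and 2.00 kb in WT, at the 17.6th, 26.0th, 9.47th and 22.5th percentile, so the 2 genes lay toward opposite ends of each list. SUZ12, a scaffold of the complex, had between 5.75 kb in TKO and 7.44 kb in F1295A. The peak at SUZ12 itself was between 2.85 kb in TKO and 3.55 kb in F1295A, and the rest was a separate peak at LRRC37B. RBBP4, a histone chaperone, had between 4.37 kb in TKO and 6.51 kb in D1240A.

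EED encodes the PRC2 subunit that binds H3K27me3 and stimulates the enzyme. H3K27me3 within 10 kb of EED was 0 kb in D1240A, 0 kb in F1295A, 8.30 kb in TKO and 0 kb in WT. The TKO peak, 8.52 kb long and at the 33.3rd percentile, ended 1.696 kb before the record, so EED was called at the 2.5 kb window and not at 1 kb. The nearest H3K27me3 peak was 666 kb away in D1240A, 665 kb in F1295A and 666 kb in WT. At the start of EED, H3K4me3 covered 3.08 kb in D1240A, 3.82 kb in F1295A, 2.42 kb in TKO and 3.28 kb in WT.

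RBBP7, the X-linked relative of RBBP4, was 1 of 2 members whose H3K4me3 call differed between forms; over all genes this share was 6.45%. It had 0 kb in D1240A, 3.11 kb in F1295A, 3.12 kb in TKO and 0 kb in WT. The F1295A peak ranked 8084 of 8239 peaks and the TKO peak 7083 of 7396, so both were among the weakest of their lists. Cut to the length of the shortest list, the F1295A list no longer held it. RBBP7 alone made up the genes called in F1295A and not in D1240A (background 3.12%), in F1295A and not in WT (1.59%), in TKO and not in D1240A (0.786%) and in TKO and not in WT (0.325%). The outer RBBP7 start, at chrX:16870313-16870612 on the minus strand, is printed because the call differs there. It holds 44 CG dinucleotides.
RBBP7 outer start: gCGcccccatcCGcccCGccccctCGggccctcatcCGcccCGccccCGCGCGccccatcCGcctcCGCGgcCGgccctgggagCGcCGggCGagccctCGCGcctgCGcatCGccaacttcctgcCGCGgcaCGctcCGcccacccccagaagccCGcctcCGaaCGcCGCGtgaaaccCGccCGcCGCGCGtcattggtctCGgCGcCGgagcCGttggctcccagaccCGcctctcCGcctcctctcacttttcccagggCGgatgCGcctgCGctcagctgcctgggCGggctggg

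The PRC2 accessory genes, whose products recruit or tune the complex, carried no H3K27me3 within 10 kb. JARID2 had 6.34 kb of H3K4me3 in D1240A, 6.09 kb in F1295A, 5.79 kb in TKO and 6.20 kb in WT and was among the most even members. PHF1 had 10.7 kb in D1240A, 12.3 kb in F1295A, 7.29 kb in TKO and 7.73 kb in WT, in peaks that also reach ends of other genes. MTF2 had between 2.32 kb in TKO and 4.02 kb in F1295A, in peaks at or under the 18.9th percentile of each list. PHF19 and AEBP2 were marked at internal starts. The strongest PHF19 peak was at the 35.2nd percentile in D1240A, the 36.1st in F1295A, the 6.19th in TKO and the 39.6th in WT, and that of AEBP2 between the 43.4th and the 50.6th.

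KDM6A and KDM6B remove H3K27 methylation. KDM6B had 9.52 kb of H3K4me3 in D1240A, 14.01 kb in F1295A, 8.0 kb in TKO and 9.16 kb in WT. The F1295A sum includes a peak of 3.92 kb that began 0.248 kb beyond the other end of the record, seen in no other form. That peak lay at the 1.98th percentile and also reached ends of CYB5D1, NAA38 and TMEM88. KDM6A, on the X chromosome, had 3.76 kb in D1240A, 3.69 kb in F1295A, 3.49 kb in TKO and 4.56 kb in WT, the lowest F1295A over WT ratio among members called in both, 0.808. Neither had H3K27me3 within 10 kb.

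NSD1, NSD3, SETD2 and ASH1L write H3K36 methylation, SETD2 being the enzyme for the trimethyl state. All 4 carried H3K4me3 at a RefSeq start or gene end in every form, and none had H3K27me3 within 10 kb. NSD1, at chr5:177131798-177300213, had 9.56 kb of H3K4me3 in D1240A, 12.2 kb in F1295A, 6.72 kb in TKO and 9.53 kb in WT. The peak at its start was 4.17 kb long in D1240A, 4.17 kb in F1295A, 2.72 kb in TKO and 3.83 kb in WT, and the rest lay beyond the other end of the record. It was the second member whose gene end call differed. The peak at its start began 0.085 kb inside the record in D1240A, 0.351 kb in F1295A, 1.125 kb in TKO and 0.978 kb in WT. At this end TKO missed and WT passed the 1 kb window by small distances. In F1295A and WT the other end was called as well, from a peak that also reached ends of RAB24, PRELID1 and MXD3. NSD1 was the single member called in D1240A and not in TKO (background 2.54%), in F1295A and not in TKO (4.89%) and in WT and not in TKO (4.09%), and at 2.5 kb or with RefSeq starts counted it was called in all 4 forms. The outermost NSD1 start, at chr5:177131548-177131847 on the plus strand, holds 7 CG dinucleotides. The next start, at chr5:177132765-177133064, was called in all 4 forms and holds 19. Both are printed because the TKO call differs between them.
NSD1 outermost start: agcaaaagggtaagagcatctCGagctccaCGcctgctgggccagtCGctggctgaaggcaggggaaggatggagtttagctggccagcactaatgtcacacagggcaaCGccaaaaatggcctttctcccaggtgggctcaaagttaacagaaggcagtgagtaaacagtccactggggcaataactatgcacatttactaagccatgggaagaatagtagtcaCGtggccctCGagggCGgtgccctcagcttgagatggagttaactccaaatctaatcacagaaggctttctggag
NSD1 next start: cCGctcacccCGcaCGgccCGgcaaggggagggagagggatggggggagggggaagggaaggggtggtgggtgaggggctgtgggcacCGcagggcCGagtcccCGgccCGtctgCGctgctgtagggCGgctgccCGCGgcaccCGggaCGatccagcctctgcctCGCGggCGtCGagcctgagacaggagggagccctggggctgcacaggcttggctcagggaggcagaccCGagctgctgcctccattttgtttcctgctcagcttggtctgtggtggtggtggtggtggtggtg

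ASH1L had 11.5 kb of H3K4me3 in D1240A, 8.97 kb in F1295A, 5.61 kb in TKO and 10.2 kb in WT, a TKO over WT ratio of 0.552. The peak at its start was 7.095 kb long in D1240A, 6.855 kb in F1295A, 4.80 kb in TKO and 7.12 kb in WT, and the rest was the edge of a separate peak at RUSC1. Its strongest peak was the 2nd strongest of the D1240A list, the 7th of F1295A, the 3rd of TKO and the 3rd of WT. In every form this peak also reached an end of the neighbouring MSTO1. ASH1L lies on chromosome 1 in the 12 Mb that begin at 150 Mb, a segment that held 1.61% of H3K4me3 peaks in D1240A, 1.53% in F1295A, 1.74% in TKO and 1.65% in WT, and 10, 11, 12 and 11 of the 50 strongest peaks of these lists; the part of this segment in the rank of ASH1L was not tested. SETD2 had 3.56 kb in D1240A, 4.65 kb in F1295A, 3.65 kb in TKO and 3.68 kb in WT, a TKO over WT ratio of 0.993. NSD3 had 10.3 kb in D1240A, 10.7 kb in F1295A, 8.85 kb in TKO and 10.4 kb in WT, in peaks shared with LETM2 and PLPP5.

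KDM2A and KDM2B remove methyl groups from H3K36, and KDM2B also brings the PCGF1 complex to CG-rich DNA. KDM2A had 6.85 kb of H3K4me3 in D1240A, 8.88 kb in F1295A, 6.32 kb in TKO and 6.96 kb in WT. The peak at its start was 4.71, 4.99, 3.89 and 4.31 kb long in these forms, and the rest was part of a separate peak at GRK2. KDM2B was marked at an internal start, in peaks at the 3.74th percentile in D1240A, the 20.0th in F1295A, the 6.24th in TKO and the 8.56th in WT, so the peak at that start was among the weaker ones of each list. A second peak inside the KDM2B record, not at a RefSeq start, lay at the 52.6th percentile in D1240A, the 67.1st in F1295A, the 52.7th in TKO and the 56.5th in WT.

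DNMT3A and DNMT3B place new DNA methylation. DNMT3B had 2.35 kb of H3K4me3 in D1240A, 5.05 kb in F1295A, 2.26 kb in TKO and 4.17 kb in WT. By these sums the D1240A over WT ratio of 0.564 was the lowest among members called in both, and the TKO over WT ratio was 0.542. The peak at DNMT3B itself was 2.35 kb long in D1240A, 5.05 kb in F1295A, 2.11 kb in TKO and 3.71 kb in WT. The rest of the TKO and WT sums was the edge of a separate peak at MAPRE1. DNMT3A had 3.47 kb in D1240A, 5.08 kb in F1295A, 2.35 kb in TKO and 3.15 kb in WT. Its strongest peak lay at the 47.4th percentile in D1240A, the 42.4th in F1295A, the 5.78th in TKO and the 52.5th in WT. No H3K27me3 lay within 10 kb of either gene.

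Across members called in both lists of a pair, the median H3K4me3 length ratio of D1240A over WT was 1.03 in 28 genes, with 11 below 1, against a median of 1.00 over all genes. F1295A over WT had a median of 1.17 in 28 genes, with 7 below 1, against 1.10 over all genes, and CBX8 was highest at 2.49. TKO over WT had a median of 0.811 in 27 genes, against 0.810 over all genes. In that pair 92.6% of members and 93.2% of all genes were below 1, so the shorter H3K4me3 in TKO followed the whole list, which covered 29.1 Mb in D1240A, 34.7 Mb in F1295A, 21.95 Mb in TKO and 30.2 Mb in WT. The members' median ratios were 1.28 for D1240A over TKO, 1.57 for F1295A over TKO and 0.869 for D1240A over F1295A, against 1.23, 1.38 and 0.905 over all genes. The pairs share lists, so their ratios are not independent.

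**Figure D4:**
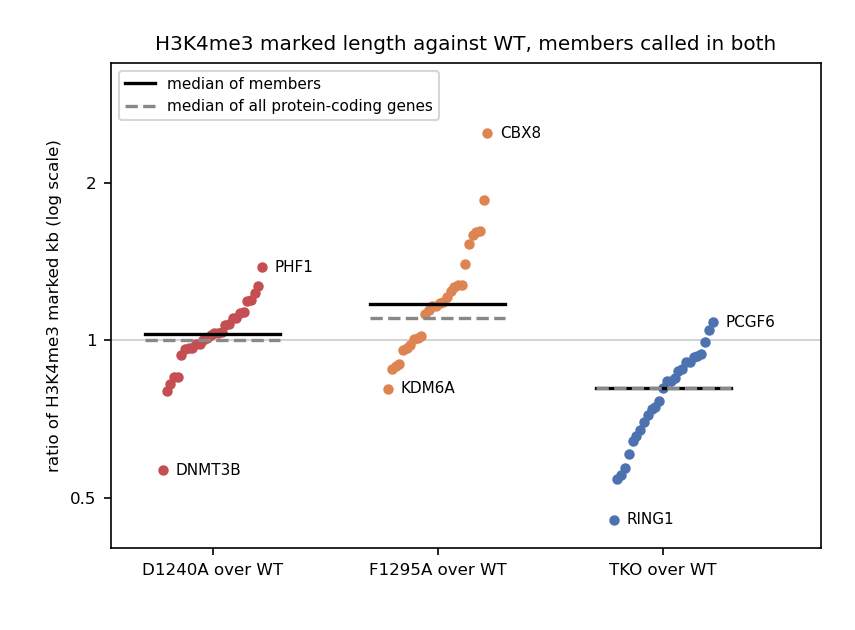
Ratio of H3K4me3 marked kilobases within 10 kb of the gene ends, on a log scale, for D1240A, F1295A and TKO over WT, with a point for each member called in both lists, a solid line at the members' median and a dashed line at the median of all genes. The TKO medians of members and of all genes coincide, at 0.811 and 0.810, and CBX8 stands highest in F1295A.

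For H3K27me3 calls at gene ends, WT and not D1240A held 1 member (background 4.34%), WT and not F1295A 1 (3.99%), WT and not TKO 2 (1.72%), D1240A and not TKO 1 (0.165%) and F1295A and not TKO 1 (0.28%). The members were PCGF1 against each of the other forms and CBX2 against TKO. No member was called for H3K27me3 in D1240A and not WT (background 0.13%), F1295A and not WT (0.21%), TKO and not WT (2.17%), TKO and not D1240A (4.82%), TKO and not F1295A (4.51%), D1240A and not F1295A (0.601%) or F1295A and not D1240A (1.03%). For H3K4me3 the empty directions were D1240A and not WT (0.285%), WT and not D1240A (2.3%), WT and not F1295A (0.716%), TKO and not F1295A (0.25%) and D1240A and not F1295A (0.24%). Ranks within a list gave the members' strongest H3K4me3 peak at a gene end a median percentile of 70.3 in D1240A, 72.2 in F1295A, 47.9 in TKO and 72.3 in WT, against 54.9, 55.7, 54.4 and 55.0 over all called genes. Since the lists differ in length, the lower TKO rank is not read as a change.

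**Figure D5:**
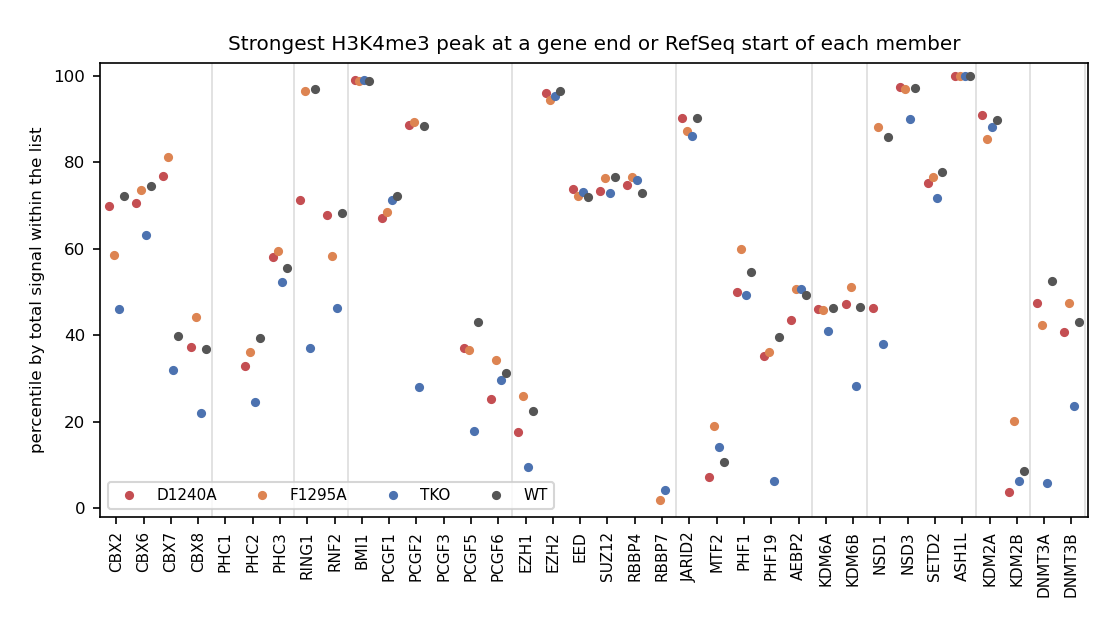
Percentile of total signal, within its own list, of the strongest H3K4me3 peak at a gene end or RefSeq start of each member, by form in the order D1240A, F1295A, TKO and WT. EZH2, BMI1 and ASH1L lie near the top of all 4 lists, and RBBP7 lies at the 1.89th percentile in F1295A and the 4.24th in TKO.

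Among 54 other genes of the same complexes and of H3K36 methylation, H3K4me3 was called at a gene end in 41 in D1240A, 43 in F1295A, 38 in TKO and 41 in WT, against 41.6%, 44.5%, 39.9% and 43.6% of all genes. It was called in all 4 forms at 37, against 39% of all genes. The call differed between forms at 6 of them, against 6.45% of all genes. RYBP, a PRC1 subunit, was called in F1295A only, at 3.47 kb. BCOR, a partner of PCGF1, was called in F1295A at 4.43 kb and in WT at 4.42 kb. E2F6, a DNA-binding protein of the PCGF6 complex, had 3.20 kb in D1240A, 2.89 kb in F1295A, 0 kb in TKO and 2.68 kb in WT. BRPF3, a reader subunit of histone acetyltransferase complexes, had 2.80, 2.89, 0 and 2.84 kb in D1240A, F1295A, TKO and WT, and RIOX1 had 2.36, 2.61, 0 and 2.72 kb. KDM4B, an H3K9 and H3K36 demethylase, had 4.05 kb in D1240A, 3.89 kb in F1295A, 3.04 kb in TKO and 0 kb in WT. H3K27me3 was called at a gene end in 0 of the 54 in each form, against 5.36%, 5.79%, 10% and 9.57% of all genes in D1240A, F1295A, TKO and WT. Within 10 kb it covered 5.95 kb at FBRSL1, 5.20 kb at CSNK2A1 and 1.61 kb at BRPF3, in TKO only. DCAF7 had 3.06 kb in TKO and 3.84 kb in WT, and IWS1 6.54 kb in TKO and 7.22 kb in WT. NSD2 had 0.263 kb in F1295A only. No others of the 54 had it within 10 kb, against 19.5% of all genes with it in at least 1 form.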

How the data were processed

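H3K27me3, H3K4me3 and IgG ChIPmentation samples of 4 forms gave 16 samples in 12 groups. The 8 peak lists were used, and IgG (4 samples) was not analysed here. The tools, per the submitters' processing notes, were SEACR 1.3 (a peak caller), Bowtie2 2.4.5 (an aligner), Trimmomatic 0.36 and FastQC 0.11.4, with GRCh38 as the build. For the peak caller's settings and control, and for how 2 H3K27me3 replicates became 1 list, the record is: not given in the sources used here. Each deposited peak holds its total signal (coverage), written by the authors' peak caller at a scaling that is not given, so signal was used only to rank peaks within a list. No read totals come with the lists, and depth is unknown.

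Peaks were joined to RefSeq GRCh38.p14 gene records and to RefSeq starts, which lie 250 bases into each promoter window, in Python 3.11.15 (numpy 2.4.6, pandas 2.3.3). Matplotlib 3.10.9 drew the figures. An overlap of 1 bp counted as a call. Promoter windows matched 33 of 36 members, and CBX2, CBX8 and NSD3 had none. The joining steps were tested on simulated peaks. The members, the 54 related genes and the alternatives were chosen with earlier results of these data known. Values in all forms are given for members with H3K27me3 within 10 kb, with H3K4me3 calls that differ, with the 3 highest or lowest H3K4me3 lengths, or with the 3 highest or lowest TKO over WT ratios; other values were chosen after they were seen. A further related gene is not reported here.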

Additional observations from a re-analysis of the deposited data

Results flagged for a closer look

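D1240A and F1295A moved in opposite directions from WT in the marked length near several members. With 1 list per form, none of these differences was tested. The median H3K4me3 length within 10 kb over the 36 members differed from WT by -0.3205 kb in D1240A and by 0.9275 kb in F1295A. These are differences between medians, and gene by gene the D1240A sign did not hold. Among 28 members called in both lists, the median D1240A over WT ratio was 1.03, with 17 above 1 and 11 below. The D1240A minus WT difference of CBX2 was -0.977 kb and the F1295A minus WT difference 0.815 kb, but the peak at CBX2 itself was 3.401 kb long in D1240A, 4.30 kb in F1295A and 4.48 kb in WT, and the F1295A sum was raised by the CBX8 peak in the window. EED differed from WT by -0.207 kb in D1240A and 0.542 kb in F1295A, and SETD2 by -0.115 kb in D1240A and 0.975 kb in F1295A. DNMT3B, the de novo DNA methyltransferase, differed by -1.815 kb in D1240A and 0.88 kb in F1295A. The peak at DNMT3B itself was 2.35 kb long in D1240A, 5.05 kb in F1295A and 3.71 kb in WT. The WT sum also held the edge of a separate peak at MAPRE1. ASH1L went the other way, by 1.338 kb in D1240A and -1.202 kb in F1295A. The peak at ASH1L itself was 7.095 kb long in D1240A, 6.855 kb in F1295A and 7.12 kb in WT, and the signs came from a separate peak at RUSC1 whose gap to the record was 5.59 kb in D1240A, 7.89 kb in F1295A and 6.95 kb in WT. For H3K27me3, CBX8 differed by -0.037 kb in D1240A and 0.071 kb in F1295A, which is small beside its total of 9.95 kb in WT. The CBX8 peak ran past the window in every form, so these differences reflect only where its near edge lay. In all, 11 of 36 members, 30.6%, had opposite H3K4me3 differences, against 19.2% of all genes, and 1 of 36, 2.78%, opposite H3K27me3 differences, against 2.32%. Genes at 0 in WT are counted in both shares but cannot have opposite differences. The median H3K4me3 length in WT was 3.92 kb over members and 0.209 kb over all genes, so the shares are not read as an excess in members.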

How the results depend on the processing

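Counts of members at gene ends moved by more than 1.5 times under these settings; forms and pairs not named stayed within it. At a 2.5 kb window, H3K27me3 was called at 4 members in TKO, both marks at 3 in TKO, and H3K27me3 pair counts became 2 for WT and not F1295A, 1 for WT and not TKO, 1 for TKO and not WT, 2 for TKO and not D1240A, 2 for TKO and not F1295A, 0 for F1295A and not TKO and 1 for D1240A and not F1295A. Counted anywhere in the gene record, H3K27me3 and both marks were each called at 2 members in TKO, and H3K27me3 pair counts became 0 for WT and not D1240A or F1295A, and 1 for F1295A and not WT, TKO and not WT, WT and not TKO, TKO and not D1240A, and F1295A and not D1240A. At RefSeq starts only, H3K27me3, both marks and all H3K27me3 pair counts were 0, but CBX2 and CBX8 have no such start here and could not be counted. H3K4me3 counts for D1240A, F1295A and WT and not TKO were 0 at 2.5 kb, in the whole record, at RefSeq starts, and at gene ends or RefSeq starts, a setting chosen after seeing the data; NSD1 is the gene they lose.

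With the stronger 50% of each list, H3K27me3 was called at 1 member in D1240A and 1 in F1295A, H3K4me3 at 13 in TKO, and both marks at 0 in D1240A, F1295A and TKO and 1 in WT. H3K27me3 pair counts became 1 for WT and not TKO and 0 for D1240A or F1295A and not TKO. H3K4me3 pair counts became 6 for D1240A and not TKO, 8 for F1295A and not TKO, 7 for WT and not TKO, 1 for D1240A and not WT, 2 for WT and not D1240A, 2 for F1295A and not WT, 1 for WT and not F1295A, 2 for F1295A and not D1240A, and 0 for TKO and not D1240A or WT. No share over all genes was computed at this setting, so these counts are not read as a loss in TKO particular to the members. The median H3K4me3 marked kb within 10 kb of the gene ends over members was then 3.29, 3.96, 0.0735 and 3.30 kb in D1240A, F1295A, TKO and WT, and within 5 kb it was 3.52, 4.45, 2.89 and 3.57 kb. With equal peak numbers, H3K27me3 counts were 0 for WT and not D1240A or F1295A and 1 for WT and not TKO, and H3K4me3 counts 0 for F1295A and not WT or D1240A and 1 for TKO and not F1295A. Requiring 500 bp in the window gave H3K4me3 counts of 1 for D1240A and not WT, 2 for F1295A and not WT and 0 for WT and not TKO. For each member's length in each list, 6 values fell with equal numbers, 71 with the stronger 50% and 82 within 5 kb, by construction. Other causes were not tested.

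No paired analysis was possible because both H3K27me3 replicates of a form share a list and H3K4me3 has 1 sample per form. For the same reason no fit without a replicate was run. A peak missing from a list is not an absence of the mark, since depth and threshold are unknown, and the lists hold no value outside peaks.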
